A study of Mus musculus with 40 samples.

Results

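The early growth response (EGR) transcription factors Egr1, Egr2, Egr3 and Egr4 were read by gene symbol from a table of counts per gene in the mouse amygdala. The table holds 43629 genes, and all 4 members of the family were measured in all 40 libraries. EGR proteins bind GC-rich DNA through zinc fingers. Their genes are immediate early genes: in neurons, synaptic activity raises cAMP and calcium and activates the ERK cascade, which acts through serum response factor (SRF) with its ternary complex partners and through CREB, and transcription rises within minutes without new protein synthesis. In the amygdala and other forebrain regions, Egr1 in particular is widely used to mark neurons that were recently active and has been linked to memory of fear.

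The mice were male Swiss Webster animals of 10 weeks. Conventional mice are called CON and germ-free mice GF, while exGF mice left the germ-free unit after weaning and were housed on bedding that CON mice had used. Each of these was taken either naïve or 1 hr after a session of social interaction (SI) in an arena with an unfamiliar mouse and an object. There were 4 libraries in each naïve group, 8 in both CON-SI and exGF-SI, and 12 in GF-SI. Naïve libraries (P) pooled 2 animals by the methods and up to 3 by the labels, whereas SI libraries (S) came from 1 animal each, so that pooling cannot be told apart from stimulation. SI mice differed from naïve mice in arena, object and social contact together, which cannot be told apart either. GF and exGF mice descended from germ-free breeding pairs and CON mice from conventional ones. In this bulk tissue, fewer cells that express a gene and less RNA per cell cannot be told apart.

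Egr1 (ENSMUSG00000038418) lies on chromosome 18 at 34859823 to 34864984 of GRCm38, on the plus strand, and is the member best known as a marker of neuronal activity. Egr2 (ENSMUSG00000037868), on chromosome 10 at 67535475 to 67542188 on the plus strand, is also the factor that Schwann cells need to form myelin. Egr3 (ENSMUSG00000033730), on chromosome 14 at 70077203 to 70082614 on the plus strand, is required for muscle spindles and has been tied to learning. Egr4 (ENSMUSG00000071341), on chromosome 6 at 85511121 to 85513589 on the minus strand, is needed for male fertility. These positions are those of GENCODE vM21. Their exons cover 4484, 3398, 4406 and 2148 bases in that order, and no annotated gene overlaps any of them on either strand, which bears on counts made without regard to strand. Reads per library numbered 359 to 4468 for Egr1, 18 to 929 for Egr2, 100 to 1177 for Egr3 and 16 to 112 for Egr4, so that Egr4 and the naïve levels of Egr2 carry the most counting error.

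Total counts per library ranged from 7291810 to 19961958 (median 14512696.5). Levels are CPM, counts divided by the TMM-scaled size of the library, and tests are edgeR's quasi-likelihood test with Benjamini-Hochberg adjustment over all genes tested, called at an adjusted p of at most 0.1. Ribosomal RNA assigned to Gm42418 made up 6.23% to 32.3% of the counts in 5 libraries (pools 1 and 3 of CON, pools 1 and 2 of exGF and animal exGF-S7) and at most 1.75% in the others, and values without these 5 libraries stand beside the results they move. Excitatory, inhibitory and amygdala markers were read in all libraries (summed CPM 1156 to 2273, 289 to 533 and 225 to 593), with Dlk1, 1 of 7 amygdala markers, at 0 in 9. The summed level of 7 striatal markers was 203 CPM in GF-P1 and 64.7 to 125 CPM in the other libraries.

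Promoter windows were available only for Egr2, the member with the largest response in CON mice, and Egr4, the member with the lowest level. None was available for Egr1 or Egr3. Windows of Egr2 and Egr4 are shown for their matches to the sites of SRF and CREB, which are known to act on immediate early genes. The 250 bases before a RefSeq start site (GRCm38.p6) are printed 5′ to 3′ on the strand of the gene. For Egr2 they are chr10:67537619-67537868 (plus strand, 61.6% G and C), which overlap no annotated exon of the gene, and for Egr4 chr6:85513590-85513839 (minus strand, 68% G and C). Capitals mark a CArG box, the site of SRF (CC, 6 letters A or T, GG), and CRE half-sites, the core of the CREB site.
Egr2: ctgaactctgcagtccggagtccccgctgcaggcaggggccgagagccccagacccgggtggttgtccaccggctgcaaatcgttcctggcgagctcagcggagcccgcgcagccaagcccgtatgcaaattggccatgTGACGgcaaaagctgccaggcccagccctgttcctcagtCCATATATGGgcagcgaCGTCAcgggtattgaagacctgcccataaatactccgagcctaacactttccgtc
Egr4: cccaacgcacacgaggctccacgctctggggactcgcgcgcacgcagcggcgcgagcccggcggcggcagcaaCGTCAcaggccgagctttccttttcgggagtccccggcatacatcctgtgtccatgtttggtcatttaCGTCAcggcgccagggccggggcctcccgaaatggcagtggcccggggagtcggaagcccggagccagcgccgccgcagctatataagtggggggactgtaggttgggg
Positions count back from the start site. The Egr2 window held a CArG box (CCATATATGG) at -72 to -63 and CRE half-sites (TGACG, searched on both strands) at -111 to -107 and -55 to -51. The Egr4 window held CRE half-sites at -177 to -173 and -109 to -105, and no CArG box was found in these letters. A further RefSeq start site of Egr2, at 67537566, also had a CArG box (CCTTTTTTGG) at -72 to -63, and that of the start site at 67535499 held none of the motifs searched. The other 2 of the 5 Egr2 windows overlap the one printed and hold the same matches. Of 32536 different windows of this length in the table, 1.48% held a CArG box and 17.9% a CRE half-site. The full CRE (TGACGTCA) was in 1.56% of windows and in none of those of Egr2 or Egr4. The EGR site itself (GCGNGGGCG) was in 4.74% of windows and in none of those of Egr2 or Egr4. These motifs were chosen after the windows had been read, and a match of letters does not show that a site is bound.

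**Figure D1:**
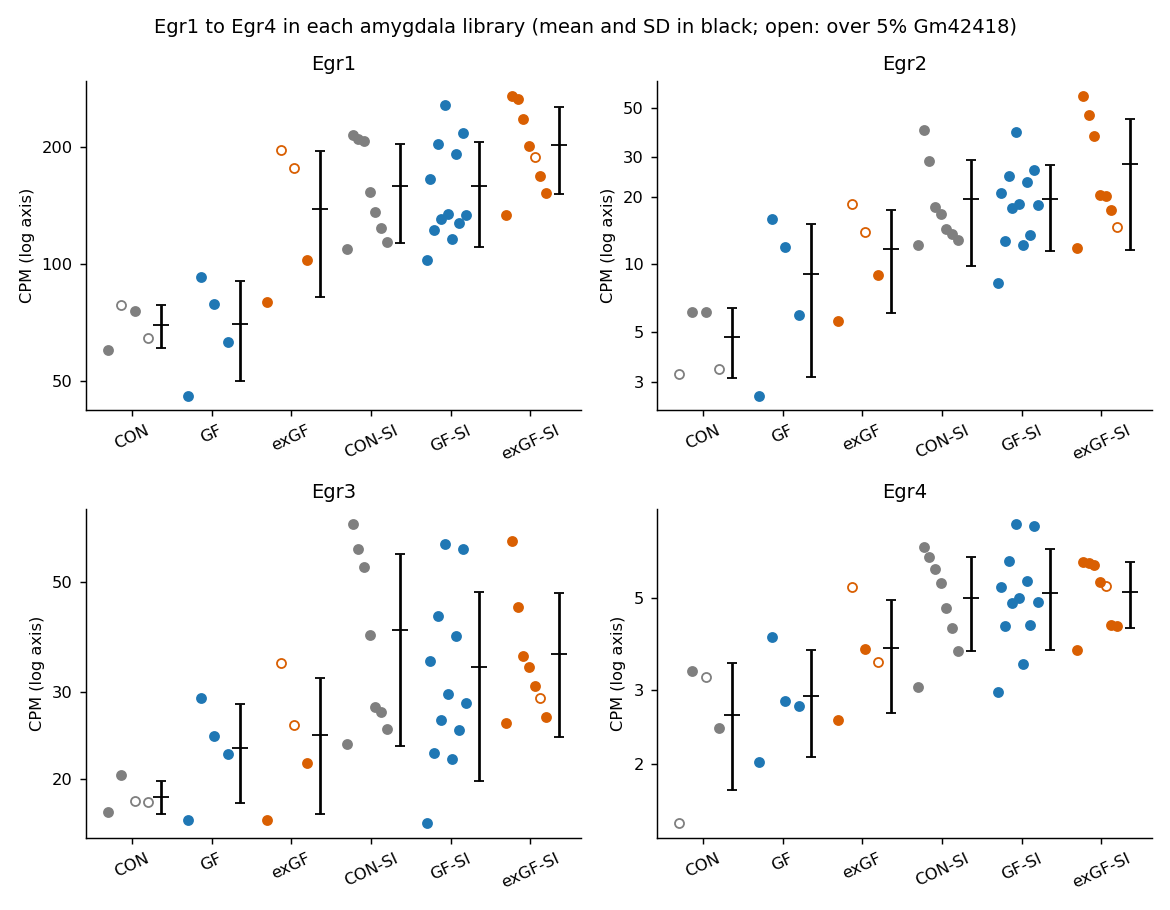
Level of Egr1 to Egr4 (CPM, log axis) in each of the 40 libraries by group, 1 point per library, with open points for the 5 libraries with over 5% of counts in Gm42418 and mean ± SD in black. All CON-SI points lie above all CON points for Egr1, Egr2 and Egr3, as for 2.45% of all genes tested, while exGF and exGF-SI points overlap for all 4 genes.

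Egr1 was the most abundant member. It was measured in CON at 64.6, 75.7, 78.8 and 60.2 CPM in CON-P1 to CON-P4, a mean of 69.8 ± 8.84 CPM (SD, n = 4). In CON-SI the lowest, median and highest libraries were at 109, 145 and 216 CPM (159 ± 45.3 CPM, n = 8). All CON-SI animals were thus above all CON pools, and 3 of them (CON-S3, CON-S10 and CON-S11) lay together at the top, at 208 to 216 CPM. In GF, Egr1 stood at 46.0, 63.3, 79.3 and 92.7 CPM in GF-P1 to GF-P4 (70.3 ± 20.2 CPM, n = 4). GF-SI ran from 102 CPM over a median of 134 to 256 CPM (159 ± 48.1 CPM, n = 12), again with no overlap. Of all genes tested, 2.45% were so separated in CON mice and 1.98% in GF mice. exGF pools differed most among themselves, with 197, 176, 102 and 80.0 CPM in exGF-P1 to exGF-P4 (139 ± 56.5 CPM, n = 4). exGF-SI covered 133 to 271 CPM with a median of 196 CPM (202 ± 51.1 CPM, n = 8), so that the 2 upper exGF pools lay within the range of stimulated animals.

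Egr2 was low in naïve mice and had the widest spread. CON pools were at 3.24, 6.17, 3.42 and 6.17 CPM (4.75 ± 1.64 CPM, n = 4), and CON-SI had a lowest, median and highest level of 12.2, 15.6 and 39.6 CPM (19.6 ± 9.72 CPM, n = 8). These groups did not overlap, with CON-SI above CON as for 2.45% of all genes tested. In GF the 4 pools held 2.61, 5.96, 16.0 and 11.9 CPM (9.11 ± 5.98 CPM, n = 4), a 6.13-fold range. GF-SI lay between 8.29 and 38.9 CPM (median 18.4, mean 19.6 ± 8.15 CPM, n = 12), and GF-P3 and GF-P4 fell inside that range. exGF pools had 18.6, 13.9, 8.93 and 5.61 CPM (11.8 ± 5.69 CPM, n = 4), in the same order as their Egr1 levels. exGF-SI extended from 11.8 to 56.3 CPM (median 20.3, mean 28.1 ± 16.4 CPM, n = 8) and overlapped exGF. The same animal, exGF-S8, held the highest level of all 4 members in exGF-SI, and exGF-S5 the lowest.

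Egr3 was the steadiest member in CON, where the pools had 17.9995, 17.2, 18.1 and 20.4 CPM (18.4 ± 1.39 CPM, n = 4). CON-SI reached from 23.6 to 65.6 CPM (median 33.6, mean 40.1 ± 16.8 CPM, n = 8), all above CON, as for 2.45% of all genes tested. The GF pools were at 29.3, 22.5, 24.4 and 16.5 CPM in GF-P1 to GF-P4 (23.2 ± 5.26 CPM, n = 4). GF-P1, the pool with the high striatal markers, thus had the lowest Egr1, Egr2 and Egr4 and the highest Egr3 of its group. GF-SI spanned 16.3 to 59.7 CPM (median 29.2, mean 33.8 ± 13.9 CPM, n = 12) and all 4 GF pools lay within that range. For exGF the values were 25.7, 34.4, 21.6 and 16.6 CPM (24.6 ± 7.53 CPM, n = 4), and exGF-SI ranged over 26.0 to 60.5 CPM (median 32.3, mean 35.9 ± 11.6 CPM, n = 8), with overlap, since exGF-P2 lay above the exGF-SI median.

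Egr4 was the scarcest member. CON pools measured 3.24, 2.44, 1.44 and 3.33 CPM (2.61 ± 0.880 CPM, n = 4) and CON-SI 3.06 to 6.62 CPM (median 5.08, mean 4.998 ± 1.27 CPM, n = 8). Only 1 CON-SI animal, CON-S12, was under the highest CON pools. GF pools had 2.02, 2.83, 4.04 and 2.76 CPM (2.91 ± 0.836 CPM, n = 4), and GF-SI 2.98 to 7.55 CPM (median 4.95, mean 5.15 ± 1.40 CPM, n = 12). exGF showed 3.52, 5.32, 3.77 and 2.55 CPM (3.79 ± 1.15 CPM, n = 4) against 3.75 to 6.12 CPM in exGF-SI (median 5.41, mean 5.17 ± 0.929 CPM, n = 8). The ranges overlapped in both.

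Levels of different members were compared per kilobase of exon. On that scale the mean level of Egr1 ran from 15.6 CPM per kb in CON to 45.1 CPM per kb in exGF-SI. It made up 62.1% (GF) to 73.6% (exGF) of the summed level of the 4 members, averaged over libraries. Egr3 contributed 13.0% to 22.5%, Egr2 6.24% to 12.1% and Egr4 3.88% to 5.52%. For all 4 genes the group means were ordered CON, GF, exGF and then the SI groups, and every group overlapped its neighbour in this order. Among the SI groups the highest mean was that of exGF-SI for Egr1, Egr2 and Egr4 and that of CON-SI for Egr3.

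How each colonisation status responded to social interaction was asked by setting SI over naïve libraries. In conventional mice all 4 members rose. Of 15220 genes tested, 2.35% were called higher, 1.37% were called lower and 2.45% had every SI library above every naïve library. The log2 fold change was 1.98 for Egr2 (standard error 0.36, adjusted p = 0.0162), which ranked 12th of 15220 genes from the highest. It was 1.18 for Egr1 (standard error 0.20, adjusted p = 0.0124), 1.12 for Egr3 (standard error 0.29, adjusted p = 0.0681) and 0.95 for Egr4 (standard error 0.26, adjusted p = 0.0848). Egr3 and Egr4 were near the threshold: Egr3 lost its call when any of CON-P1 to CON-P4, CON-S6, CON-S10 or CON-S11 was left out (adjusted p up to 0.195), and Egr4 did so without any of these or CON-S5 (up to 0.212). Egr1 and Egr2 kept theirs each time. Without the ribosomal RNA-rich pools CON-P1 and CON-P3, which leaves 2 CON pools, the log2 fold changes were 1.23, 1.66, 1.09 and 0.79 for Egr1 to Egr4 and none was called (adjusted p = 0.156, 0.218, 0.350 and 0.357). Of the cell type and region markers, 2 of 4 for endothelium and pericytes, 1 of 4 for excitatory neurons, 1 of 3 for hypothalamus and thalamus and 1 of 5 for choroid plexus and ependyma were called lower in CON-SI, and 1 of 3 for blood cells higher. Their part in the Egr responses was not tested, other than that of the cortex marker level.

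In germ-free mice 3 of 4 members rose, where 7.87% of 15443 genes were called higher, 5.86% lower, and 1.98% had every SI library above every naïve one. Egr1 rose by 1.17 on the log2 scale (standard error 0.23, adjusted p = 0.00626). Egr2 rose by 1.12 (standard error 0.39, adjusted p = 0.0808) and Egr4 by 0.83 (standard error 0.23, adjusted p = 0.0314). The value for Egr3 was 0.54 (standard error 0.28, 95% interval -0.04 to 1.13, adjusted p = 0.249). Leaving out GF-P1 or GF-P2 removed the calls of Egr2 and Egr4 (adjusted p up to 0.241 and 0.107), and leaving out GF-S5 or GF-S12 removed that of Egr2. Egr1 was called each time. None of these libraries was rich in Gm42418. In the same comparison 2 of 7 striatal markers were called lower (median log2 fold change -0.70, summed level 75.3 to 203 CPM in GF and 64.7 to 125 CPM in GF-SI), as were 1 of 4 microglial and 1 of 4 endothelial and pericyte markers, of which 1 more was called higher. Their part was not tested.

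In exGF mice 0 of 4 members were called, where 4.6% of 15264 genes were called higher, 3.01% lower, and 2.87% had every SI library above every naïve one. All 4 had an unadjusted p under 0.05. The log2 fold changes were 0.55 for Egr1 (95% interval 0.05 to 1.04, adjusted p = 0.198), 1.30 for Egr2 (0.37 to 2.22, adjusted p = 0.109), 0.56 for Egr3 (0.08 to 1.05, adjusted p = 0.174) and 0.48 for Egr4 (0.06 to 0.89, adjusted p = 0.181). DESeq2 called Egr2 (1.25, adjusted p = 0.0822), as did edgeR without exGF-P1, exGF-S5 or exGF-S7 (adjusted p down to 0.0637). Without exGF-P1, exGF-P2 and exGF-S7, all rich in Gm42418, the fold changes became 1.16, 2.06, 0.96 and 0.72 for Egr1 to Egr4 and Egr1 was called (adjusted p = 0.0866). In exGF-SI 2 of 4 microglial, 2 of 4 endothelial and pericyte, 1 of 4 excitatory and 1 of 6 amygdala markers were called lower, and 1 of 6 striatal and 1 of 5 choroid plexus and ependyma markers higher. Their part was not tested.

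**Figure D2:**
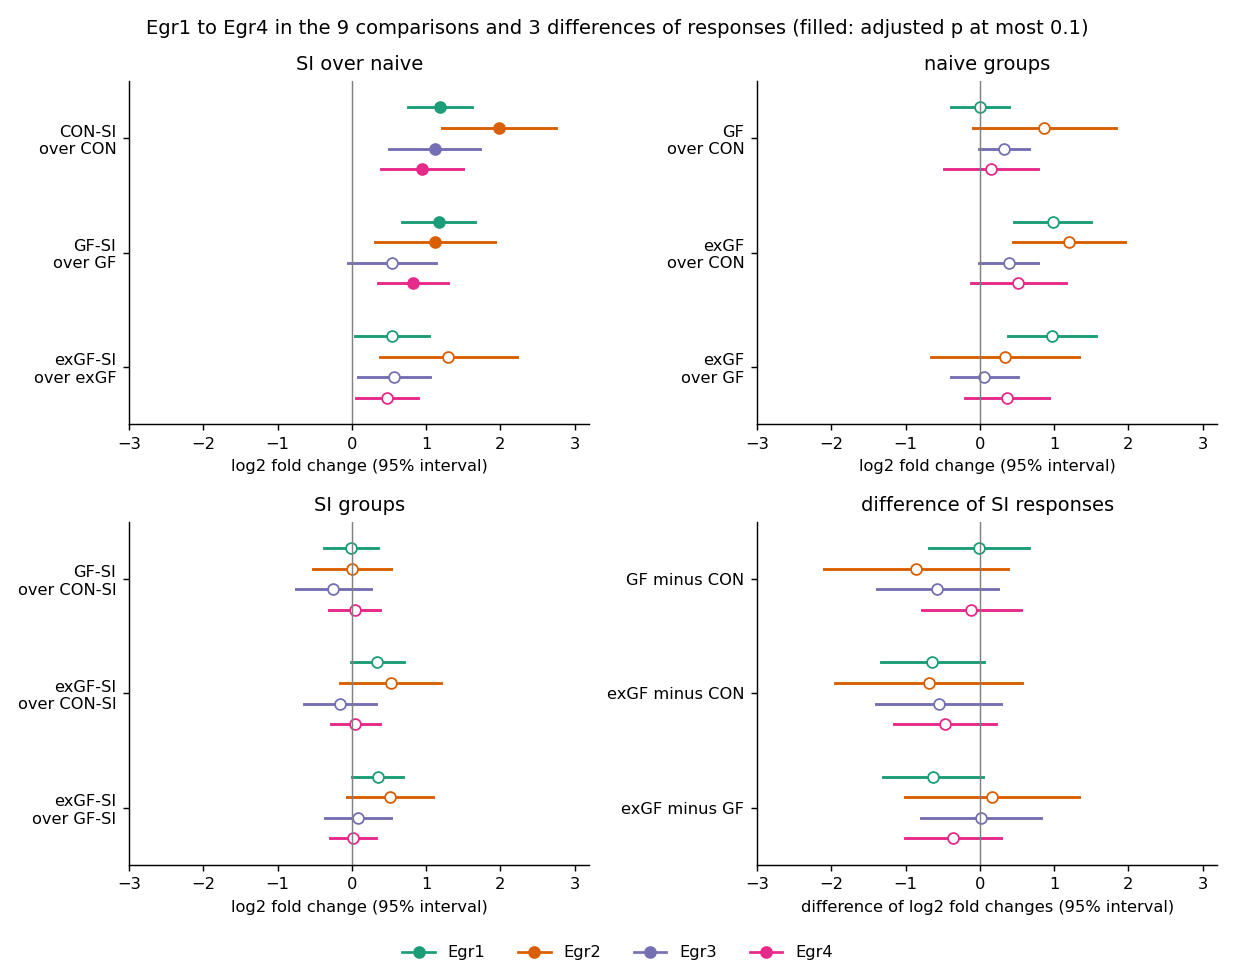
Log2 fold changes of Egr1 to Egr4 with 95% intervals (horizontal axis) in the 9 comparisons of groups, and differences of log2 fold changes between the SI responses. Filled points passed an adjusted p of 0.1, and all 7 of them lie among the SI responses of CON and GF mice.

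Whether the responses themselves differed was tested in 1 fit over the 6 groups, and 0 of the 12 differences was called. None had an unadjusted p under 0.05, and DESeq2 called none. In this fit 0.031% of 16111 genes were called higher and 0.0621% lower in the response of GF than of CON mice, and 0% in either direction in both other differences. For Egr2 the response of GF was smaller than that of CON by 0.85 on the log2 scale, but the interval (-2.09 to 0.38) included 0. For Egr3 this difference was -0.57 (-1.39 to 0.25), for Egr4 -0.11 (-0.78 to 0.56) and for Egr1 -0.01 (-0.68 to 0.67). The response of exGF minus that of CON was -0.64 for Egr1 (-1.33 to 0.06), -0.69 for Egr2 (-1.95 to 0.57), -0.55 for Egr3 (-1.40 to 0.29) and -0.47 for Egr4 (-1.16 to 0.21). Without the 5 libraries rich in Gm42418 these values were -0.07, 0.39, -0.15 and -0.08. Against GF, the exGF response differed by -0.63 for Egr1 (-1.30 to 0.04), 0.17 for Egr2, 0.02 for Egr3 and -0.36 for Egr4. These differences share the libraries of each group and are not independent of each other.

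Naïve groups were compared to ask whether colonisation status alone went with other Egr levels. In GF over CON 0 of 4 members were called by edgeR or DESeq2, and none had an unadjusted p under 0.05, with 0.054% of 14811 genes called higher and 0.0878% lower. No member had all GF pools above all CON pools, as 3.02% of genes did. The log2 fold change was 0.01 for Egr1 (95% interval -0.38 to 0.40), 0.87 for Egr2 (-0.09 to 1.83), 0.33 for Egr3 (-0.01 to 0.66) and 0.16 for Egr4 (-0.48 to 0.79). In exGF over CON 0 of 4 were called by edgeR, with 0.0553% of 14463 genes called higher and 0.0484% lower, and Egr1 and Egr2 had an unadjusted p under 0.05. Egr1 differed by 0.98 (0.46 to 1.50, adjusted p = 0.353) and Egr2 by 1.20 (0.45 to 1.95, adjusted p = 0.560), for which DESeq2 gave a call (1.27, adjusted p = 0.0655). All exGF pools were above all CON pools for Egr1, as for 1.89% of genes. Egr1 was called when exGF-P4 was left out (1.17, adjusted p = 0.0620). Both exGF-P1 and exGF-P2, which hold the upper Egr1 and Egr2 levels, are also the exGF pools rich in Gm42418. Gm42418 took 14.3% and 6.23% of their counts, against 32.3% in CON-P1 and 18.5% in CON-P3. These CON pools held the lowest Egr2 levels of their group (3.24 and 3.42 CPM, against 6.17 CPM in both others) and 64.6 and 78.8 CPM of Egr1, and the part of Gm42418 in the levels was not tested. Without these 4 pools exGF over CON was 0.42 for Egr1, 0.22 for Egr2, 0.01 for Egr3 and 0.11 for Egr4. In exGF over GF, which shares pools with the other comparisons, 0 of 4 were called by edgeR or DESeq2, as were 0% of 14669 genes in either direction by edgeR. No member had all exGF pools above all GF pools, as 2.59% of genes did. Egr1, at 0.97 (0.38 to 1.56, adjusted p = 0.396), had an unadjusted p under 0.05 and the others were at 0.34, 0.06 and 0.36 for Egr2 to Egr4.

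After social interaction no difference between the 3 groups passed the test. Of the 4 members 0 were called in GF-SI over CON-SI (0.458% of 15078 genes called higher and 0.643% lower), exGF-SI over CON-SI (0.844% of 14937 higher and 0.462% lower) or exGF-SI over GF-SI (0.0133% of 15068 higher and 0.0863% lower) by edgeR, and DESeq2 called none. Egr1 in exGF-SI over GF-SI was the only value with an unadjusted p under 0.05. Egr1 differed between GF-SI and CON-SI by -0.01 on the log2 scale (95% interval -0.37 to 0.36) and Egr2 by 0.01 (-0.52 to 0.53). Egr3 differed by -0.25 (-0.75 to 0.25) and Egr4 by 0.04 (-0.31 to 0.39). For exGF-SI over CON-SI the values were 0.34 for Egr1 (-0.02 to 0.70), 0.52 for Egr2 (-0.16 to 1.20), -0.16 for Egr3 (-0.64 to 0.32) and 0.05 for Egr4 (-0.28 to 0.38). Over GF-SI, exGF-SI stood at 0.35 for Egr1 (0.01 to 0.69, adjusted p = 0.376), 0.52 for Egr2 (-0.06 to 1.10), 0.09 for Egr3 and 0.01 for Egr4.

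Whether members moved by different amounts was asked within libraries, where scaling between libraries cancels. The log2 ratio of the counts of 2 members was compared between SI and naïve libraries with two-sided exact permutation tests, 18 in all with Benjamini-Hochberg adjustment. These tests exchange naïve pools with single SI animals, although a pool averages animals and may vary less. In CON mice Egr2 rose relative to each other member. Its ratio to Egr1 moved from -3.92 ± 0.57 (SD, n = 4) to -3.09 ± 0.45 (n = 8), a difference of 0.83 (exact permutation p = 0.0202, adjusted p = 0.0909). The ratio of Egr3 to Egr2 fell by 0.96 (exact permutation p = 0.0141, adjusted p = 0.0848) and that of Egr4 to Egr2 fell by 1.02 (exact permutation p = 0.0101, adjusted p = 0.0848). In GF mice the ratio of Egr3 to Egr1 fell by 0.70 (exact permutation p = 0.0121, adjusted p = 0.0848). The other 14 ratios did not pass, among them all 6 in exGF mice, where the smallest adjusted p was that of Egr2 to Egr1 (0.59, exact permutation p = 0.0465, adjusted p = 0.167). The smallest p these tests allow is 0.00202 with 4 and 8 libraries and 0.000549 with 4 and 12. None of the 4 passed with 2 rather than 0.5 added to each count, or without the libraries rich in Gm42418. No GF or GF-SI library was rich in Gm42418, so the GF ratio and its unadjusted p were unchanged in that run. Its call was lost there only through the adjustment made over all tests together. The 3 ratios with Egr2 in CON each lost their call in 9 of 12 runs with 1 library left out, in each case without CON-P1, CON-P3, CON-S2, CON-S6, CON-S7, CON-S10, CON-S11 or CON-S12 and further without CON-S5 for Egr1 and Egr3 or CON-P4 for Egr4 (adjusted p up to 0.218). That of Egr3 to Egr1 in GF did so without GF-P1, GF-P2 or GF-P3 (adjusted p up to 0.261).

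Within the SI groups the 4 members varied together from animal to animal. Over the 28 SI animals, Pearson's r of the deviations from the group mean was 0.83 for Egr1 with Egr3, 0.75 for Egr1 with Egr2, 0.65 for Egr2 with Egr4, 0.63 for Egr2 with Egr3, 0.55 for Egr1 with Egr4 and 0.51 for Egr3 with Egr4. Spearman's rho was 0.81, 0.74, 0.63, 0.64, 0.53 and 0.52 in the same order. All 6 pairs passed in permutation tests of 100000 draws within groups, with adjusted p for r from 3e-05, the smallest these draws can give here, to 0.0102 and for rho from 6e-05 to 0.00992. Without the 2 animals farthest from the median of the gene named first, r was 0.78, 0.71, 0.61, 0.55, 0.51 and 0.49. Pearson's r was also read within each SI group. Egr1 with Egr3 had r of 0.96 among CON-SI animals, 0.91 among GF-SI and 0.47 among exGF-SI, and Egr1 with Egr2 had 0.67, 0.71 and 0.92. For Egr1 with Egr4 the values were 0.41, 0.54 and 0.83, for Egr2 with Egr3 0.60, 0.73 and 0.59, for Egr2 with Egr4 0.57, 0.67 and 0.81, and for Egr3 with Egr4 0.39, 0.66 and 0.29. Differences in r between groups were not tested.

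**Figure D3:**
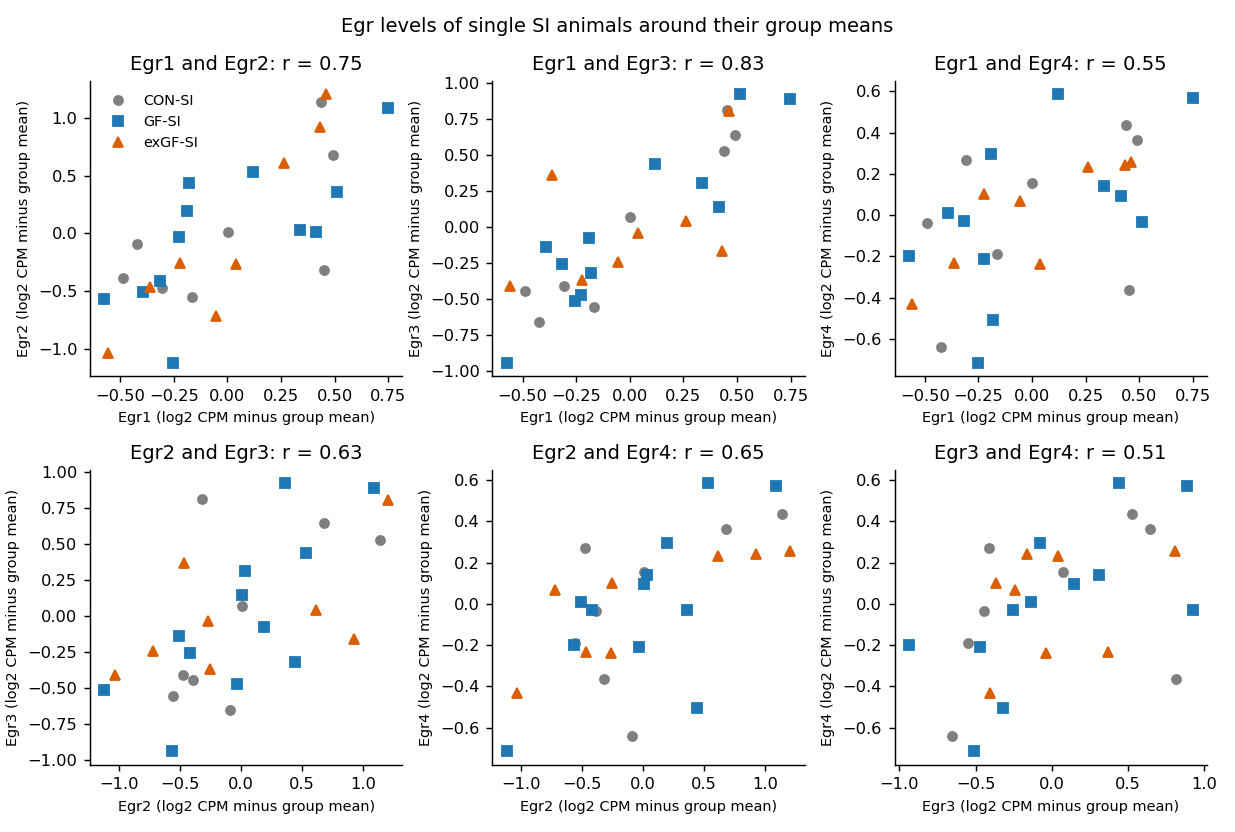
Deviations of log2 CPM from the group mean for each pair of Egr members, 1 point per SI animal, with circles for CON-SI, squares for GF-SI and triangles for exGF-SI. All 6 pairs rise together, most closely Egr1 with Egr3 (r = 0.83).

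The levels of Egr1 and Egr3 in single animals also went with markers of the neighbouring cortex. The 4 markers Cux2, Rorb, Rasgrf2 and Tle4 summed to 389 to 453 CPM in CON, 371 to 508 in GF and 349.9 to 453 in exGF, and after SI to 380.3 to 659, 282 to 518 and 368 to 519 CPM in the same order, so that naïve and SI ranges overlapped. Among the 28 SI animals, r of the log2 sum with Egr1 was 0.77 (rho 0.79), with Egr3 0.86 (rho 0.85), with Egr2 0.51 (rho 0.59) and with Egr4 0.35 (rho 0.35). Over 52 relations of the 4 members with 13 marker lists, adjusted permutation p for r was 0.000347 for Egr1, 0.00026 for Egr3, 0.0382 for Egr2 and 0.314 for Egr4. Without the 2 animals with the most extreme cortex sums r was 0.74 for Egr1, 0.80 for Egr3, 0.60 for Egr2 and 0.50 for Egr4. Within CON-SI, GF-SI and exGF-SI it was 0.90, 0.87 and 0.32 for Egr1 and 0.93, 0.90 and 0.54 for Egr3. GF-S10 had the lowest cortex sum and the lowest Egr1 and Egr3 of GF-SI, and CON-S3 the highest cortex sum and the highest Egr3 of CON-SI.

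**Figure D4:**
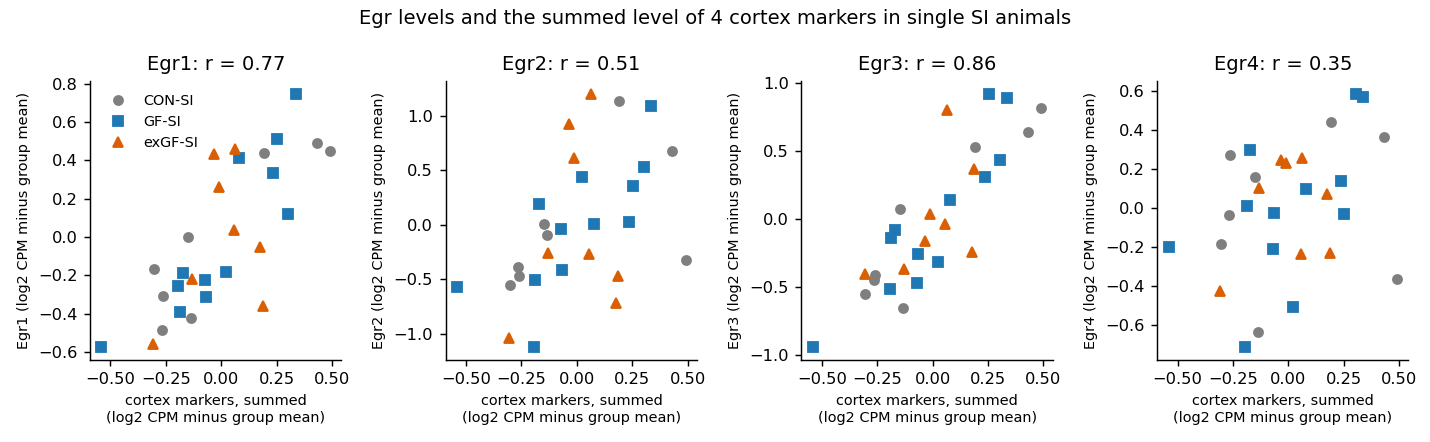
Deviation of each Egr member (log2 CPM minus group mean, vertical axis) against that of the summed level of 4 cortex markers (horizontal axis) in the 28 SI animals, by group. The points rise with the cortex markers most closely for Egr3 (r = 0.86) and Egr1 (r = 0.77), with r of 0.51 for Egr2 and 0.35 for Egr4.

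Of the other marker lists, those of amygdala nuclei, hypothalamus and thalamus, oligodendrocytes and astrocytes also passed with a member. The summed level of markers of amygdala nuclei went the other way from cortex. In the same permutation tests it had r of -0.66 with Egr1 (rho -0.69, adjusted p = 0.00247) and -0.49 with Egr3 (rho -0.53, adjusted p = 0.0636). Without the 2 most extreme animals r was -0.66 and -0.51. Lypd1 and Etv1 (mean 204 and 106 CPM) made up most of that sum, with the other markers at means of at most 25.4 CPM. Relations with single markers were not tested. Markers of hypothalamus and thalamus, at 2.19 to 16.4 CPM in all, had r of -0.74 with Egr1 (rho -0.72, adjusted p = 0.00026) and -0.59 with Egr3 (rho -0.55, adjusted p = 0.0151), and -0.48 with Egr2 (rho -0.49, adjusted p = 0.0554). Tcf7l2 and Lhx9 (mean 2.32 and 2.39 CPM) made up most of this sum. Hcrt, Avp and Oxt were at 0 in 28, 25 and 32 libraries. Among glia, oligodendrocyte markers had r of 0.52 with Egr1 (rho 0.48, adjusted p = 0.0540, r = 0.54 without the 2 most extreme animals) and astrocyte markers -0.47 with Egr3 (rho -0.51, adjusted p = 0.0681, r = -0.54 without them) in the same permutation tests. For hypothalamus and thalamus r without the 2 most extreme animals was -0.67 for Egr1, -0.49 for Egr3 and -0.36 for Egr2. With the cortex level as a covariate, an alternative chosen after seeing the data, the response of CON was 0.92 for Egr1 (adjusted p = 0.00308), 1.68 for Egr2 (0.0280), 0.69 for Egr3 (0.0335) and 0.90 for Egr4 (0.136, no longer called). That of GF was 1.23 for Egr1, 1.22 for Egr2, 0.67 for Egr3 (0.0142, now called) and 0.89 for Egr4, and none was called in exGF. Between members, r with the cortex level removed was 0.66 for Egr1 with Egr2, 0.52 for Egr1 with Egr3, 0.47 for Egr1 with Egr4, 0.43 for Egr2 with Egr3, 0.59 for Egr2 with Egr4 and 0.43 for Egr3 with Egr4 (adjusted permutation p at most 0.0402). Schwann cell markers, the cells in which Egr2 is best known outside the brain, summed to at most 1.34 CPM, with Pmp2 at 0 in 35 libraries.

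Genes known to act with, upstream or downstream of EGR proteins were read from lists. The lists were chosen with earlier results of these data known. Their counts stand against 2.35% of all genes called higher and 1.37% lower in CON-SI, 7.87% and 5.86% in GF-SI, and 4.6% and 3.01% in exGF-SI. Of the corepressors Nab1 and Nab2, which bind Egr1 to Egr3 and are themselves induced by activity in the case of Nab2, Nab2 rose in CON-SI by 0.68 on the log2 scale (standard error 0.19, adjusted p = 0.0897) and Nab1 in GF-SI by 0.37 (standard error 0.08, adjusted p = 0.0132). Nab2 was at 0.32 in GF-SI (adjusted p = 0.177), and 0 of 2 were called in exGF-SI. Among SRF, its ternary complex partners and its coactivators (6 genes), Srf rose in all 3 responses (CON, GF and exGF in this order throughout), by 0.45, 0.27 and 0.29 (adjusted p = 0.0469, 0.0661 and 0.0752). Elk4 was the only other gene of this list called, with a rise of 0.35 in GF-SI (adjusted p = 0.0339). The medians of the list were 0.11, -0.00232 and 0.10, against -0.00584, -0.00993 and -0.000637 over all genes tested.

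Of 7 genes of CREB and its relatives, Crem, which makes activators as well as the inducible repressor ICER, rose in all 3 responses by 0.76, 0.50 and 0.77, and Creb1 rose in GF-SI by 0.44 (adjusted p = 0.00145). The list medians were 0.03, 0.05 and 0.11. Of 13 ERK cascade genes, 1 was called lower in CON-SI, 2 lower in GF-SI, and 1 higher and 2 lower in exGF-SI, where 1.37%, 5.86% and 3.01% of all genes were called lower in that order and 4.6% higher in exGF-SI. They were Rps6ka5, a kinase of CREB and histone H3, at -0.37 in CON-SI and -0.32 in exGF-SI, the related kinase Rps6ka4 at -0.40 in GF-SI and -0.34 in exGF-SI, Map2k2 at -0.26 in GF-SI and Rps6ka3 at 0.34 in exGF-SI. The list medians were 0.03, -0.06 and -0.07.

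Of 11 genes described as EGR targets in neurons, 2 were called higher in CON-SI, Arc (1.86, adjusted p = 0.0402), a regulator of glutamate receptor traffic, and Nab2, against 2.35% of all genes. In GF-SI, Arc was called higher (1.24, adjusted p = 0.0957) and Ache, the acetylcholinesterase gene, lower (-0.47, adjusted p = 0.0439) among 10 tested, against 7.87% of all genes called higher and 5.86% lower. In exGF-SI 0 of 10 passed. The list medians were -0.01, 0.07 and 0.04, close to those of all genes. Of 3 tested zinc finger genes with similar GC-rich sites (Sp1, Sp3 and Sp4), Sp4 fell by 0.22 in GF-SI (adjusted p = 0.0562) and none was called in CON-SI or exGF-SI.

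Other immediate early genes give a measure for the Egr responses. Of 6 tested AP-1 genes, 3 rose in each response, where 2.35%, 7.87% and 4.6% of all genes were called higher. Fosb rose by 2.58, 1.53 and 1.96, and Fosl2 by 1.29, 1.35 and 1.03. Fos rose by 1.34 in CON-SI and 1.18 in exGF-SI, and Jun by 0.54 in GF-SI. The medians of the AP-1 list were 0.88, 0.56 and 0.60, and those of the 4 Egr genes 1.15, 0.97 and 0.56. Of the NR4A nuclear receptors, Nr4a3 rose in all 3 responses (0.96, 1.59 and 0.82) and Nr4a2 in exGF-SI (0.77). Among 8 further immediate early genes, Homer1 rose in all 3 responses (1.17, 0.99 and 1.17), Klf4 in GF-SI (0.63), and Arc as given above, while Btg2 fell by 0.49 in CON-SI and by 0.66 in GF-SI and Ier2 fell by 1.08 in exGF-SI. Of all these genes, in naïve GF over CON mice only Fosb was called (1.13, adjusted p = 0.00598).

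**Figure D5:**
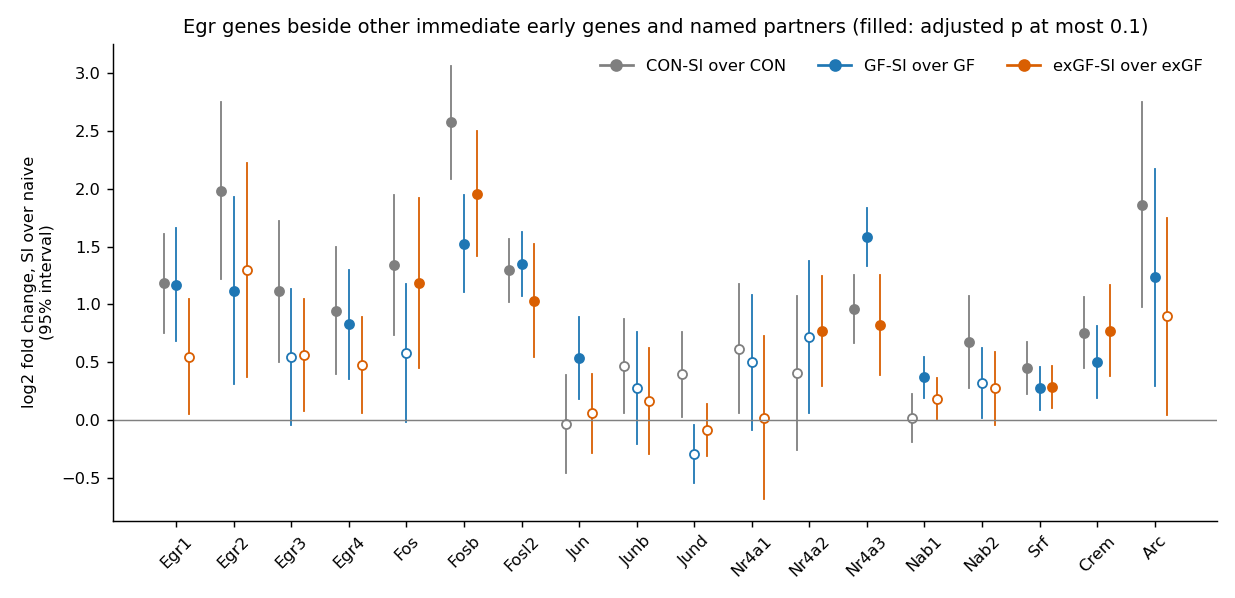
Log2 fold change of SI over naïve libraries with 95% intervals (vertical axis) for the 4 Egr genes, the AP-1 and NR4A genes tested, Nab1, Nab2, Srf, Crem and Arc, in grey for CON, blue for GF and orange for exGF. Filled points passed an adjusted p of 0.1, which in exGF holds for Fos, Fosb, Fosl2, Nr4a2, Nr4a3, Srf and Crem and for no Egr gene.

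The genes whose log2 CPM followed each member most closely were taken as the 5 with the highest Pearson's r among 14024 genes of at least 1 CPM. These values are a description over libraries that share their groups and depth. Over all 40 libraries, Egr1 was followed by Arl5b (r = 0.93), Midn, Ankrd33b, Bcor and Dusp6, and Egr2 by Dusp6 (r = 0.92), a phosphatase of ERK, and Arc, Arl5b, Klf10 and Nab2. Egr3 was followed by Pdp1 (r = 0.88), Syt13, Lzts3, Tet3 and Numb, and Egr4 by Srf (r = 0.83), Nab2, Egr2, Irs2 and Fosb. Within the SI groups, over 28 animals, the closest were Sowahb (r = 0.91), Etv6, Nr4a1, Tet3 and Pde4d for Egr1, Nab2 (r = 0.90), Dusp6, Nr4a1, Gem and Baz1a for Egr2, Fscn1 (r = 0.93), Exph5, Lingo1, Lzts3 and Bcor for Egr3, and Erf (r = 0.83), Junb, Pcyox1l, Nab2 and Irf2bpl for Egr4. Nab2 was among the 5 closest genes of Egr2 and Egr4 in both measures and not among those of Egr1 or Egr3. Absence from these 5 does not show a lower r. Over all libraries Nab2 had r of 0.82 with Egr4, whereas the last of the 5 genes of Egr1, Dusp6, had 0.89.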

How the data were processed

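Gene expression was measured by RNA sequencing of ribodepleted amygdala RNA. The counts are those the authors deposited, whole numbers per gene without scaling. Per the submitters' notes and the methods, reads were trimmed with Trimmomatic 0.32, aligned with STAR 2.4.0f1 to GRCm38.p3 and counted with HTSeq 0.6.0 on Ensembl release 78 without strand. The sampled depth, 7291810 to 19961958 counts, limits genes of few reads such as Egr4. 0 pairs of libraries were identical. Symbols came from GENCODE vM21 for 42462 genes, and 2 newer symbols from RefSeq synonyms.

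The group of each library is the one its column name gives. Pairs of groups were compared with edgeR 4.0.16 in R 4.3.3 (quasi-likelihood test, TMM, filterByExpr on the groups compared, Benjamini-Hochberg adjustment, threshold 0.1 as in the study), and responses in 1 fit over 6 groups. p-values rest on the spread between libraries. That spread is between pools in the naïve groups and between single animals in the SI groups. Log2 CPM used a prior count of 2. Ratios, correlations and tables used numpy, scipy and pandas in Python. The tests were tried on simulated data. Alternatives were DESeq2 1.42.0, RLE scaling, no filter, 1 fit over 6 groups, each library left out, libraries with over 5% Gm42418 left out, ribosomal RNA genes left out of totals and, chosen after seeing the data, a cortex marker covariate. The genes named are the 4 members, those of the fixed lists and markers, and the 5 most like each member. Members and lists were chosen with earlier results of these data known. The authors' own comparisons, exon usage, behaviour and RT-qPCR were not used here. 2 genes of the lists are not reported here and were left out of list counts and marker sums.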

Additional observations from a re-analysis of the deposited data

How the results depend on the processing

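The rises of Egr1 in CON-SI and GF-SI and of Egr2 in CON-SI were called in every alternative run except that without the libraries rich in Gm42418, where no member was called in CON-SI (0 rather than 4). Of 316 values of single members under other settings, apart from runs with 1 library left out, 285 kept their direction and side of the threshold. Of the rest, 17 reversed, 9 gained a call and 5 lost one. Most of these values were not called in the main run, so that keeping their side of the threshold says little for them. Counts of members called in exGF-SI became 1 rather than 0 with no filter on low counts, with DESeq2, in 1 fit over the 6 groups and without the Gm42418-rich libraries. In exGF over CON 0 became 2 with no filter and 1 with DESeq2, and in exGF over GF 0 became 1 with no filter. The causes were not tested. The member ratios passing fell from 4 to 0 with 2 added to each count or without the Gm42418-rich libraries. The latter run left out no GF or GF-SI library, so the GF ratio itself did not change and lost its call only through the joint adjustment. With 1 library left out, the counts ran from 2 to 4 in CON-SI, 1 to 3 in GF-SI, 0 to 1 in exGF-SI, 0 to 1 in exGF over CON and 0 to 5 for the ratios, and stayed at 0 in the other comparisons.

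Directions reversed only for values that were not called. Without the Gm42418-rich libraries these were Egr4 in GF over CON (-0.00845), Egr2 and Egr3 in exGF over GF (-0.32 and -0.28), Egr4 in the GF minus CON response (0.051) and Egr2 in the exGF minus CON response (0.39). For Egr1 in GF-SI over CON-SI the value was 0.00156 with no filter, 0.00104 with DESeq2 and 7.23e-05 in 1 fit over the 6 groups, and for Egr3 in the exGF minus GF response -0.00043 with DESeq2. With the cortex covariate, GF-SI over CON-SI was 0.25 for Egr1 and 0.13 for Egr3, exGF-SI over GF-SI -0.14 for Egr3 and -0.090 for Egr4, the GF minus CON response 0.33 for Egr1 and 0.044 for Egr4, and the exGF minus GF response -0.071 for Egr2 and -0.31 for Egr3.

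With 1 library left out, GF over CON ran from -0.16 to 0.17 for Egr1 and -0.049 to 0.33 for Egr4, and exGF over GF from -0.14 to 0.22 for Egr3. GF-SI over CON-SI ran from -0.086 to 0.069 for Egr1, -0.13 to 0.23 for Egr2 and -0.043 to 0.11 for Egr4. exGF-SI over CON-SI ran from -0.031 to 0.11 for Egr4, and exGF-SI over GF-SI from -0.062 to 0.20 for Egr3 and -0.043 to 0.074 for Egr4. The GF minus CON response ran from -0.16 to 0.16 for Egr1 and -0.29 to 0.094 for Egr4, and the exGF minus GF response from -0.22 to 0.47 for Egr2 and -0.14 to 0.22 for Egr3. Ratios that crossed 0 were Egr4 to Egr1 (-0.51 to 0.0096) and Egr4 to Egr3 (-0.32 to 0.10) in CON, Egr2 to Egr1 in GF (-0.18 to 0.43), and Egr3 to Egr1 (-0.22 to 0.029) and Egr4 to Egr3 (-0.14 to 0.014) in exGF. No paired analysis was possible because the column names carry no number that ties a library of one group to a library of another.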
